A study of Homo sapiens with 6 samples.

Results

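The regions described here are the NeuroD1 and H3K4me3 regions listed at 8 genes of neuronal differentiation, MYT1, MYT1L, ST18, INSM2, EBF1, EBF3, LMO1 and LMO3. Untreated H524 and H82 cells, which are established human small cell lung cancer lines, were profiled by chromatin immunoprecipitation sequencing with antibodies against NeuroD1 and H3K4me3. There was 1 library per antibody and line, and an input library of each line was not analysed here. A region was taken when it touched a gene span (build hg19, ends rounded to 1 kb) or the 50 kb on either side of it. These windows held 101 of the 61250 distinct regions of the 4 lists. H524 had 54 of 20593 NeuroD1 regions and 21 of 18595 H3K4me3 regions there, and H82 had 6 of 3854 NeuroD1 regions and 20 of 18208 H3K4me3 regions. Differences between the lines therefore have no replicate check and carry no p-value. Distances to the end of a span are good to about 1 kb. Annotated transcript starts can lie elsewhere than the end of a span and were not placed on this build. The number of reads behind each list is unknown. Regions of 1 library are not replicates, so the exact Clopper-Pearson 95% intervals cover counting error only. They also take regions as independent, which neighbouring regions may not be.

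NeuroD1 is a basic helix-loop-helix factor that drives neuronal and endocrine differentiation and binds E-boxes, short motifs of the form CANNTG. H3K4me3 is a histone mark of promoters that are active or poised. MYT1, MYT1L and ST18 form a family of zinc finger factors of neurons and endocrine cells, and MYT1L is known for repressing non-neuronal genes in neurons. INSM2 is a zinc finger factor related to INSM1, a marker of neuroendocrine tumours. EBF1 and EBF3 are helix-loop-helix factors of the early B-cell factor family, EBF1 best known from B cells and EBF3 from developing neurons. LMO1 and LMO3 are LIM-only proteins that bridge other transcription factors without binding DNA themselves, and both have been linked to neuroblastoma. No expression was measured, so nothing below says how strongly any of these genes was transcribed.

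The promoter sequences of 4 of these genes are shown. At these, and at no other of the 8, H3K4me3 of both lines was listed within 3 kb of the 5′ end of the gene span. Whether the RefSeq start of another gene, such as MYT1, lies at the mark of both lines was not determined. The sequences come from RefSeq (GRCh38.p14), a build other than that of the regions, so they were not placed under any region. Each runs 5′ to 3′ from 250 bases before to 50 bases after a transcription start, on the minus strand except for INSM2, with every E-box CANNTG in capitals. The MYT1L sequence is that of the first of 4 starts (chr2:2331226-2331525), the LMO3 sequence that of the third of 5 (chr12:16606113-16606412). The third and the fourth start of LMO3 both lie, by their distance from the first, among the distances of the mark. The third is shown as the one with more E-boxes, and the fourth holds 1 CANNTG and neither CAGATG nor CAGCTG. INSM2 (chr14:35533914-35534213) and EBF1 (chr5:159097907-159098206) have 1 start each.
MYT1L: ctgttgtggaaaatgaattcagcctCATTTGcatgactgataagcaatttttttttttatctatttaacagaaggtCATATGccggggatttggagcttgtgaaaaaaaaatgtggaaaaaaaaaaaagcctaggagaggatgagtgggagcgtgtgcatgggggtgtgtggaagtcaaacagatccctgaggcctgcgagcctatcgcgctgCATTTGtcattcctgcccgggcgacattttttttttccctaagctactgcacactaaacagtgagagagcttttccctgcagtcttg
INSM2: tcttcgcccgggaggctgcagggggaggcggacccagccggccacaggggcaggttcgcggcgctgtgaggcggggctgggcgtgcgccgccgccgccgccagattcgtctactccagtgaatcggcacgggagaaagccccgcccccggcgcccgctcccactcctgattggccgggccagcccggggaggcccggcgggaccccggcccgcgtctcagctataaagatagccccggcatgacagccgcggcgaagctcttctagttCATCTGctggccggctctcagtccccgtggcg
EBF1: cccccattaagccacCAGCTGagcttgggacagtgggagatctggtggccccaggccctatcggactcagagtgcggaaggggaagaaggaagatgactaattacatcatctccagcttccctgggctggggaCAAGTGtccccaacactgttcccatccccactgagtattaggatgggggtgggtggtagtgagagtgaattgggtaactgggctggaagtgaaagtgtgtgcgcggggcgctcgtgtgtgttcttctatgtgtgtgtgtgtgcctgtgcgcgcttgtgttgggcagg
LMO3: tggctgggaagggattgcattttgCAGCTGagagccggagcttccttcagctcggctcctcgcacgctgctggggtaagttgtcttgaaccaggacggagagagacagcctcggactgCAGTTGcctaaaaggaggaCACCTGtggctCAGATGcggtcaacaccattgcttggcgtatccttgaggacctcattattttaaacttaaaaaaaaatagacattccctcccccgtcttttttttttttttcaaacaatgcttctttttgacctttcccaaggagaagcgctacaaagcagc
The MYT1L promoter held 3 E-boxes, INSM2 1, EBF1 2 and LMO3 4. Among 35116 promoters of this length in the table, 68.7% held at least 1 CANNTG, a motif that reads alike on both strands. The form CAGATG, which reads CATCTG on the opposite strand, was found in 14.7% of all promoters. It stands once in the INSM2 and once in the LMO3 sequence. CAGCTG, also alike on both strands, was in 17.9% of all promoters and stands once in EBF1 and once in LMO3. The LMO3 start was picked by its E-boxes, so its motifs cannot be compared with these shares. Of the MYT1L starts not shown, the third holds 1 CAGCTG and the fourth 1 CAGATG. Of the 14 starts that the table gives for 7 of the 8 genes, 8 held CANNTG (57.1%) and 3 held CAGATG or CATCTG (21.4%). The single promoters of MYT1, EBF3 and LMO1 held no CANNTG.

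By count, H524 had more NeuroD1 regions than H82 at 6 of the 8 genes, from a list 5.34 times as long, and 29 of its 54 belonged to MYT1L and EBF1. As a share of each list, H524 was higher at MYT1L, ST18, EBF1 and LMO1 and lower at the other 4. With the H524 list limited to the length of the H82 list it was higher at EBF1 and ST18, lower at EBF3 and LMO3 and equal at the other 4. EBF1 had 15 in H524 against 1 in H82, MYT1L 14 against 1, ST18 8 against 0, LMO1 8 against 0, INSM2 4 against 1 and MYT1 3 against 1. EBF3 and LMO3 had 1 in each line. All 8 windows therefore held a NeuroD1 region in H524 and 6 did in H82. Across the genome, 52.6% of tiles of 200 kb held a NeuroD1 region of H524 and 18.1% held one of H82. The windows differed in length and reached 642 kb for MYT1L. Per Mb of window, flanks included, the H524 density was highest at LMO1 with 57.6 NeuroD1 regions, followed by INSM2 with 38.8 and EBF1 with 29.8. This order depends on the flanks. Inside the spans lay 1 of the 8 regions of LMO1, 0 of the 4 of INSM2 and 12 of the 15 of EBF1.

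**Figure D1:**
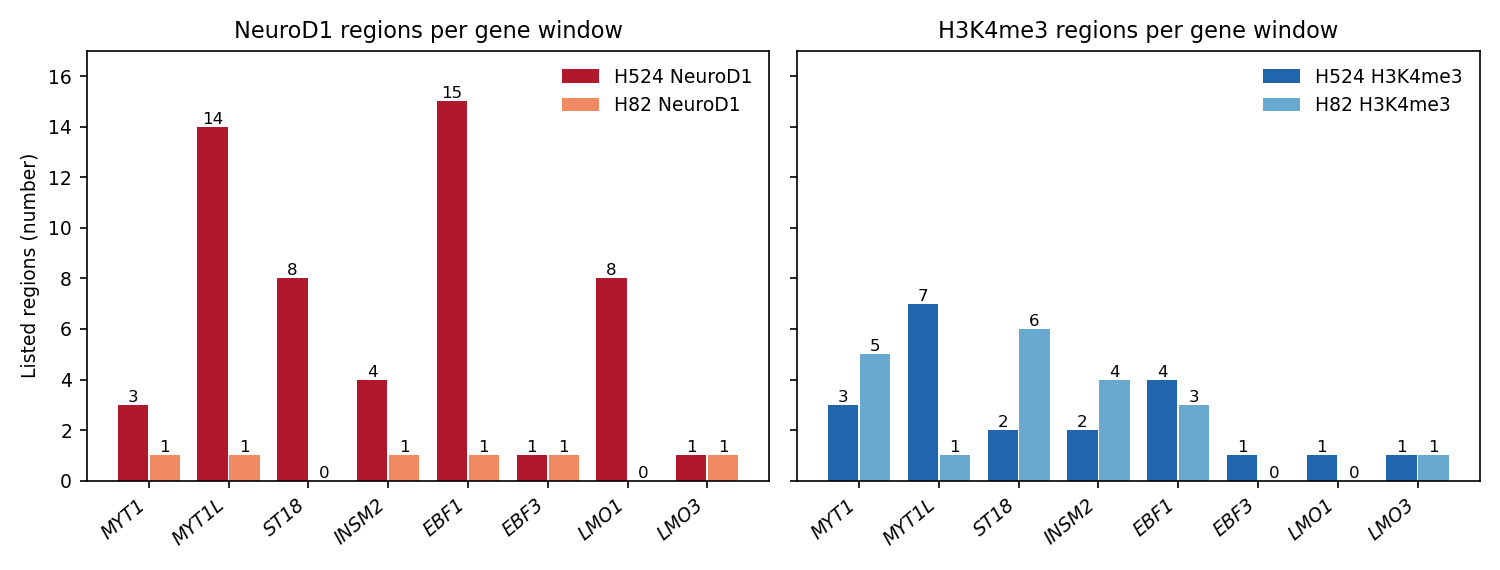
Number of listed regions in each gene window, for NeuroD1 (left) and H3K4me3 (right), with H524 left of H82. NeuroD1 counts, not scaled to list length, were higher in H524 at 6 genes, up to 15 at EBF1, but at 4 genes as a share of each list and at 2 with lists of equal length, whereas H3K4me3 counts ran from 1 to 7 in H524 and from 0 to 6 in H82.

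Because the lists differ in length, the counts in all windows together were set against the length of each list. The windows held 0.262% (0.197 to 0.342) of the H524 list and 0.156% (0.0572 to 0.339) of the H82 list. The log2 ratio of these shares, H524 over H82, was 0.75 with a counting interval of -0.46 to 1.97, which includes 0. Scaling by the regions on each gene's own chromosome gave 0.59. When the H524 list was limited to as many of its highest-scoring regions as the H82 list holds, 6 regions remained in the windows, against the 6 of H82. These 6 lay at MYT1, MYT1L, ST18, INSM2 and, with 2, EBF1. The density in the windows was set against that of each whole list over the 2939 Mb spanned by regions. Those Mb were not limited to genes, and windows at other genes were not compared. For NeuroD1, the 22.8 regions per Mb in H524 were 3.26-fold the density of its list. The 2.54 per Mb in H82, from 6 regions, were 1.93-fold that of its list. For H3K4me3 these folds were 1.40 in H524 and 1.37 in H82. The log2 ratio of the H3K4me3 shares was 0.04 with a counting interval of -0.84 to 0.92.

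The median score of the NeuroD1 regions at these genes was below that of the whole list in both lines, a difference that was not tested. The score, read as a −log10 adjusted p-value, ran from 1.38 to 19.0 with a median of 3.31 in H524 and from 1.58 to 5.27 with a median of 2.50 in H82. The whole lists had medians of 4.04 in H524 and 3.61 in H82. As a percentile within its own list, the median region of the windows stood at 38.4 in H524 and at 28.2 in H82. In H524 22 of 54 regions scored above the middle of the list and 1 was among its highest 10%. In H82 1 of 6 scored above the middle of the list.

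**Figure D2:**
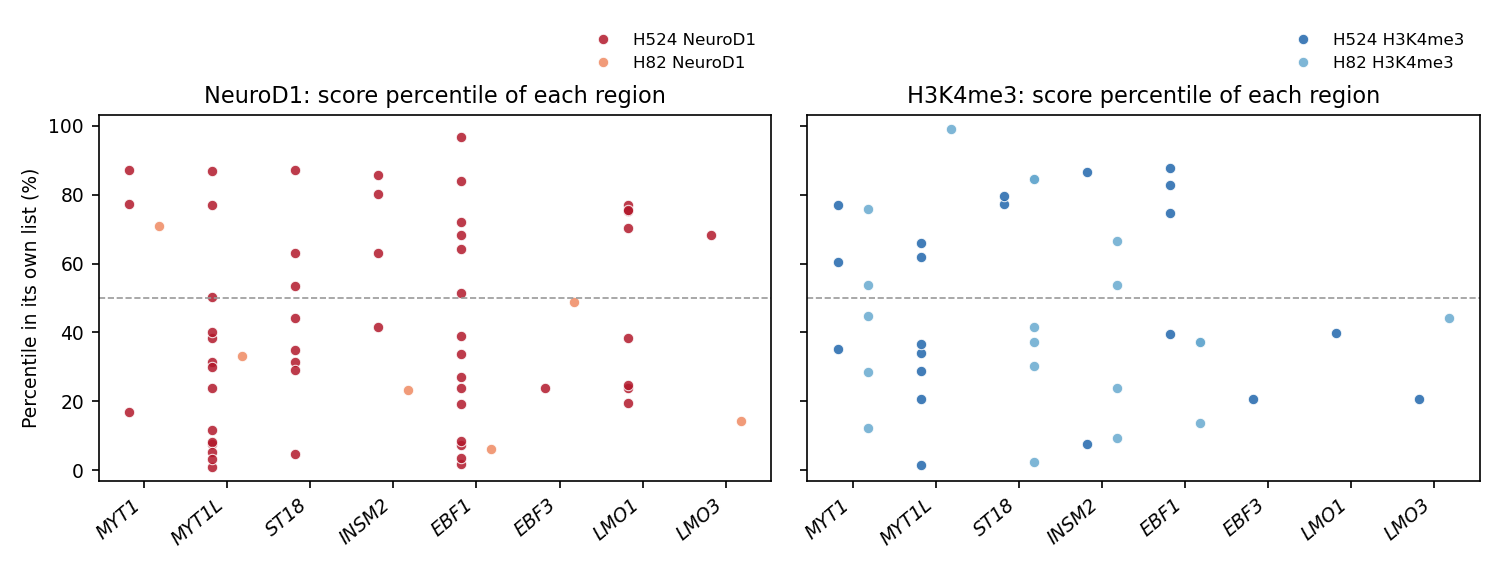
Percentile by score of every region within its own list, by gene, for NeuroD1 (left) and H3K4me3 (right). The dashed line marks the middle of a list. The highest NeuroD1 region was at EBF1 in H524 (percentile 96.6) and the highest H3K4me3 region at MYT1L in H82 (99.0).

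At MYT1 (chromosome 20, 62783000 to 62873000), a NeuroD1 region next to the mark was listed at the same place in both lines. The H524 region, from 62795440 to 62795744, scored 10.4 and stood at percentile 87.1, and the H82 region, from 62795472 to 62795779, scored 5.27 and stood at percentile 71.0. They shared 273 bp and lay 12.4 to 12.8 kb inside the span. The RefSeq start of MYT1 was not placed on this build, so whether these regions lie at its promoter or inside the gene was not determined. In H524 this region ended 0.160 kb before the H3K4me3 region from 62795904 to 62797177, which scored 5.94 with 3 summits. In H82 it touched by 20 bp the H3K4me3 region from 62794667 to 62795491, and it ended 0.157 kb before the one from 62795936 to 62797710. The NeuroD1 region thus sat in the gap between marked stretches in H82 and at the edge of the marked stretch in H524. H82 had a further H3K4me3 region from 62792730 to 62794384, its highest at this gene with a score of 5.94, and no H524 region overlapped it.

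H524 had 2 more NeuroD1 regions at MYT1. The one from 62796992 to 62797496 scored 2.07 and overlapped the mark of H524 by 186 bp and the mark of H82 over its whole length. The other, from 62777833 to 62778179, scored 7.59 and lay 4.82 kb upstream of the span. The remaining H3K4me3 regions lay outside the gene. The H524 region from 62886622 to 62886940 and the H82 regions from 62887324 to 62887686 and from 62887983 to 62889553 were 13.6 to 15.0 kb beyond the 3′ end, on the side of the next gene PCMTD2. The H524 region from 62733749 to 62734200 was 48.8 kb upstream, the farthest H3K4me3 region that the 50 kb limit admitted. The nearest left out was 55.7 kb from LMO1, also in H524.

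MYT1L (chromosome 2, 1793000 to 2335000) had the mark at its 5′ end in both lines, high-scoring in H82 and spread over several regions in H524. The H82 region, from 2333051 to 2334648, scored 15.0, ranked 174 of 18208 and was the only H3K4me3 region of H82 in this window. The overlapping H524 region, from 2333638 to 2335029, scored 4.97 and ranked 6326 of 18595. H524 had 3 further regions downstream, from 2329767 to 2330068, from 2328978 to 2329367 and from 2326248 to 2328248, so that the 4 regions extended over 8.78 kb. RefSeq places the other 3 starts of the gene 4.96, 6.59 and 6.93 kb downstream of the first. The H524 regions lay 4.93 to 5.23, 5.63 to 6.02 and 6.75 to 8.75 kb downstream of the 5′ end of the span. These distances come from different builds and were compared as lengths only.

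At this 5′ end NeuroD1 was listed at different places in the lines. The H82 region, from 2333606 to 2333994, scored 2.72 and lay wholly inside the high-scoring H3K4me3 region, 1.01 to 1.39 kb downstream of the 5′ end. In H524 the region from 2335094 to 2335648 scored 3.38 and lay 0.065 kb from the upstream edge of the mark of H524, and a lower-scoring one followed from 2336764 to 2337206 (score 1.44). No NeuroD1 region of one line overlapped one of the other at this gene, and the closest pair was 1.1 kb apart. H524 regions that overlapped the mark of H524 were those from 2329723 to 2330070 (score 1.51) and from 1858889 to 1859173 (score 1.76), both low in the list. The 3 highest-scoring H524 regions were inside the gene and far from any H3K4me3 of H524. They were at 2011602 to 2012130 (score 10.2), 2079713 to 2080558 (score 7.54) and 2054260 to 2054601 (score 4.10), with gaps to the mark of 152, 221 and 195 kb. Of the 14 H524 regions 3 scored above the middle of the list, and the lowest scored 1.38.

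Beyond the 3′ end of MYT1L, towards PXDN, H524 had H3K4me3 regions from 1746595 to 1747243 and from 1747889 to 1748498 and a NeuroD1 region from 1744369 to 1744663. The NeuroD1 region was 48.3 kb from the span with a score of 1.62, the farthest NeuroD1 region admitted. The nearest one left out lay 51.7 kb from LMO1 and scored 2.68, also in H524.

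ST18 (chromosome 8, 53023000 to 53322000) carried its H3K4me3 in the middle of the span in both lines and had NeuroD1 regions in H524 alone. The marked stretch lay 155 to 162 kb from the upper end of the span. H524 had 2 wide regions there, from 53162874 to 53165214 (score 6.07, 2341 bp) and from 53165541 to 53166977 (score 6.44, 1437 bp). H82 had 6 narrower ones between 53159869 and 53166482, 259 to 1007 bp wide, the highest of which scored 7.02 from 53160843 to 53161849. Of the 6 H82 regions 4 overlapped the H524 ones, and the region with that highest score did not. No H3K4me3 region was listed at either end of the span in either line.

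Of the 8 NeuroD1 regions of H524 at ST18, 3 fell on this stretch and overlapped the mark of H524. The region from 53163917 to 53165214 (score 3.21) lay on it over its whole 1298 bp, the region from 53166758 to 53167665 (score 5.34) over 220 bp and the region from 53162388 to 53163125 (score 1.47) over 252 bp. The first and the last of these also overlapped the mark of H82, by 661 and 623 bp. The highest-scoring NeuroD1 region of the gene was at 53064001 to 53065001 with a score of 10.5, 97.9 kb from the mark. The third highest, at 53255180 to 53255504, scored 4.45 and lay 88.2 kb from it. The H82 list held no NeuroD1 region in this window, and the nearest one was 203 kb or more from any H524 region there. Chromosome 8 as a whole held 4.50% of the NeuroD1 list of H524 and 5.79% of that of H82.

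**Figure D3:**
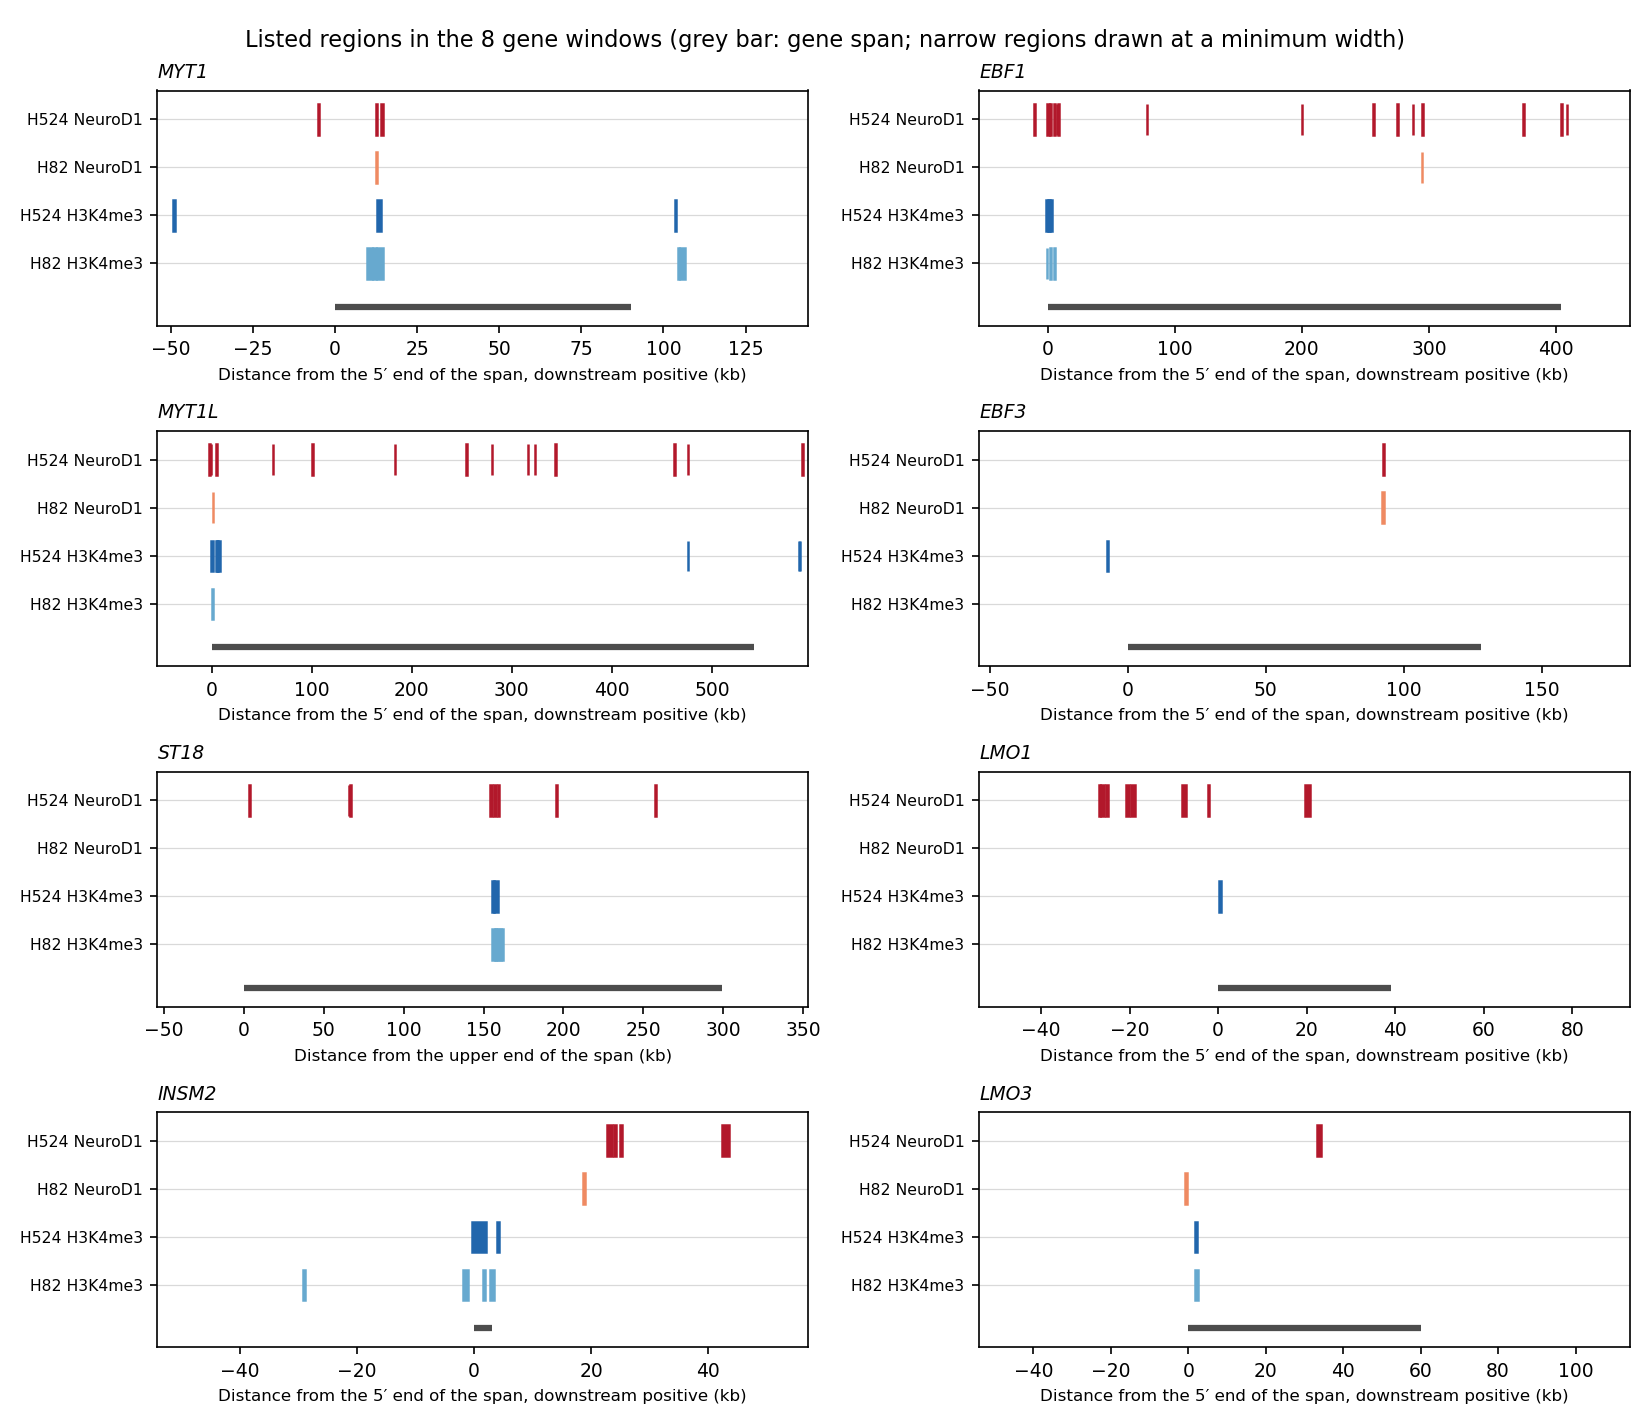
Position of every listed region in the 8 windows, as distance in kb from the 5′ end of each gene span (for ST18 from its upper end), with the 4 lists from top to bottom. NeuroD1 regions of H524 are spread along MYT1L and EBF1 and lie mostly upstream of the LMO1 span. Most H3K4me3 regions of a gene lie together at 1 place, except at MYT1, where those of H524 lie upstream of, inside and beyond the span.

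INSM2 (chromosome 14, 36003000 to 36006000), a gene of 3 kb, carried H3K4me3 in both lines and had its NeuroD1 regions well downstream. The H524 region from 36002613 to 36005043 spanned the 5′ end, was 2431 bp wide with 4 summits, scored 7.59 and stood at percentile 86.5. In H82 the gene carried the regions from 36004536 to 36004937 (score 4.93), which lay inside the H524 region, and from 36005668 to 36006434 (score 2.25). H82 also had a region just upstream, from 36001069 to 36001960 (score 3.71), so the 5′ end of the span lay under the mark in H524 and between marked regions in H82. The other H3K4me3 regions scored low, from 36006974 to 36007241 in H524 (score 1.45) and from 35973873 to 35974145 in H82 (score 1.49).

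No NeuroD1 region of either line lay within INSM2 or upstream of it. H524 had 3 within 2.56 kb, the highest from 36025673 to 36026508 with a score of 9.84, 19.7 kb beyond the 3′ end. The others were at 36026858 to 36027277 (score 3.63) and 36027931 to 36028232 (score 5.34). The last one, from 36045261 to 36046585 (score 8.21), was 39.3 kb beyond the 3′ end. The H82 region, from 36021604 to 36021968 (score 2.27), was 15.6 kb beyond it and 3.70 kb short of the nearest H524 region. The next gene on that side is RALGAPA1, known here by order only, so whether the regions lie inside RALGAPA1 was not determined. Nothing in the files ties the regions to either gene. None of the 5 overlapped H3K4me3 of either line.

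EBF1 (chromosome 5, 158123000 to 158527000) combined marked NeuroD1 regions at its 5′ end in H524 with unmarked ones along the gene. H3K4me3 of H524 was listed in 4 regions over 4.59 kb around the 5′ end. Going upstream these were 158524071 to 158524623 (score 3.15), 158524912 to 158525681 (score 7.69), 158526031 to 158526756 (score 6.80) and 158527578 to 158528663 (score 5.88). H82 had 3 lower-scoring ones, from 158521660 to 158521950 (score 1.81), from 158524833 to 158525552 and from 158527546 to 158527915, the last 2 with a score of 2.84 each. Both of these overlapped an H524 region. The H524 regions stood at percentiles 39.7 to 87.6 against 13.8 to 37.1 for those of H82.

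In H524, 5 NeuroD1 regions lay within 9.28 kb at the 5′ end of EBF1. The region from 158526350 to 158527311 (score 5.44) reached across the 5′ end of the span and shared 407 bp with the mark. The region from 158524582 to 158525371 (score 5.80) shared 460 and 42 bp with marked regions on either side of it. The region from 158518032 to 158518977 (score 6.61) lay 5.09 kb from the mark. Those from 158519432 to 158519815 (score 2.67) and from 158521395 to 158521772 (score 1.74) did not overlap the mark of H524, and the last touched that of H82.

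The highest-scoring NeuroD1 region of all 8 windows was inside EBF1, from 158326621 to 158327218 with a score of 19.0 and rank 713 in H524. It lay 197 kb from any H3K4me3 region of H524 and 93.8 kb from the only NeuroD1 region of H82 here. The second was at 158270215 to 158270971 (score 9.25). The H82 region, from 158232356 to 158232787, scored 1.58 at percentile 6.23 and shared 317 bp with the H524 region from 158231496 to 158232672 (score 4.11). The other 7 H524 regions scored 1.44 to 3.34. Chromosome 5 held 5.92% of the H524 NeuroD1 list and 3.06% of that of H82, and the part of this difference in the EBF1 counts was not tested.

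EBF3 (chromosome 10, 131634000 to 131762000) had 1 NeuroD1 region, and it was the same in both lines. The H524 region, from 131669211 to 131669647 (score 2.47), lay wholly inside the H82 region from 131668982 to 131669729 (score 3.49), 92.3 to 93.0 kb inside the span. The H524 region stood at percentile 24.0 of its list and the H82 region at 48.9. At the other 5 genes with NeuroD1 in both lines the highest region stood higher in H524. Except at LMO3, H524 had several regions there to take the highest from, against 1 in H82, so the lines were not compared on like terms. At LMO3 the regions of the lines lay at different places. No mark accompanied the EBF3 region, as the nearest H3K4me3 region was 99.4 kb away in H524 and 265 kb away in H82. In H524 a low-scoring H3K4me3 region lay upstream of the gene, from 131769096 to 131769474 (score 2.09), and H82 had none in the window. Chromosome 10 held 0.685% of the NeuroD1 regions of H524 and 1.79% of those of H82, and 0.774% and 3.02% of the H3K4me3 regions. The part of this low share in the EBF3 counts was not tested.

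LMO1 (chromosome 11, 8246000 to 8285000) had NeuroD1 and H3K4me3 regions in H524 and none of either kind in H82, although with NeuroD1 lists of equal length neither line had a NeuroD1 region there. The H524 list placed 7 of its 8 NeuroD1 regions upstream of the gene span. Of these, 5 lay within 8.21 kb between 8303746 and 8311956, 18.7 to 27.0 kb upstream of the span. The highest of the 5 was at 8305067 to 8305794 (score 7.19). The highest-scoring region at the gene, from 8264147 to 8265423 (score 7.54, 2 summits), lay inside it, 19.6 to 20.9 kb from the 5′ end. The region from 8292307 to 8293088 scored 7.11. The H3K4me3 region, from 8284383 to 8284893 (score 3.17), was 0.107 to 0.617 kb inside the 5′ end, and no NeuroD1 region overlapped it, the closest being 2.20 kb away. The nearest NeuroD1 region of H82 was 398 kb or more from those of H524, and the nearest H3K4me3 region of H82 was 180 kb from that of H524. Chromosome 11 held 4.59% of the NeuroD1 list of H524 and 2.88% of that of H82, and its part in the LMO1 counts was not tested.

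LMO3 (chromosome 12, 16701000 to 16761000) had the same marked region in both lines and NeuroD1 at different places. The H3K4me3 region ran from 16758785 to 16759377 (score 2.09) in H524 and from 16758523 to 16759269 (score 3.39) in H82, with 485 bp in common. Together they covered 1.62 to 2.48 kb downstream of the 5′ end of the span. RefSeq places the third and the fourth start of LMO3 2.05 and 2.24 kb downstream of the first, again in another build. The NeuroD1 region of H524, from 16726699 to 16727771 (score 5.80, 2 summits), lay 33.2 to 34.3 kb inside the gene. That of H82, from 16761462 to 16761776 (score 1.82), lay 0.462 kb upstream of the span and 2.19 kb from the mark. The 2 regions were 33.7 kb apart.

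**Figure D4:**
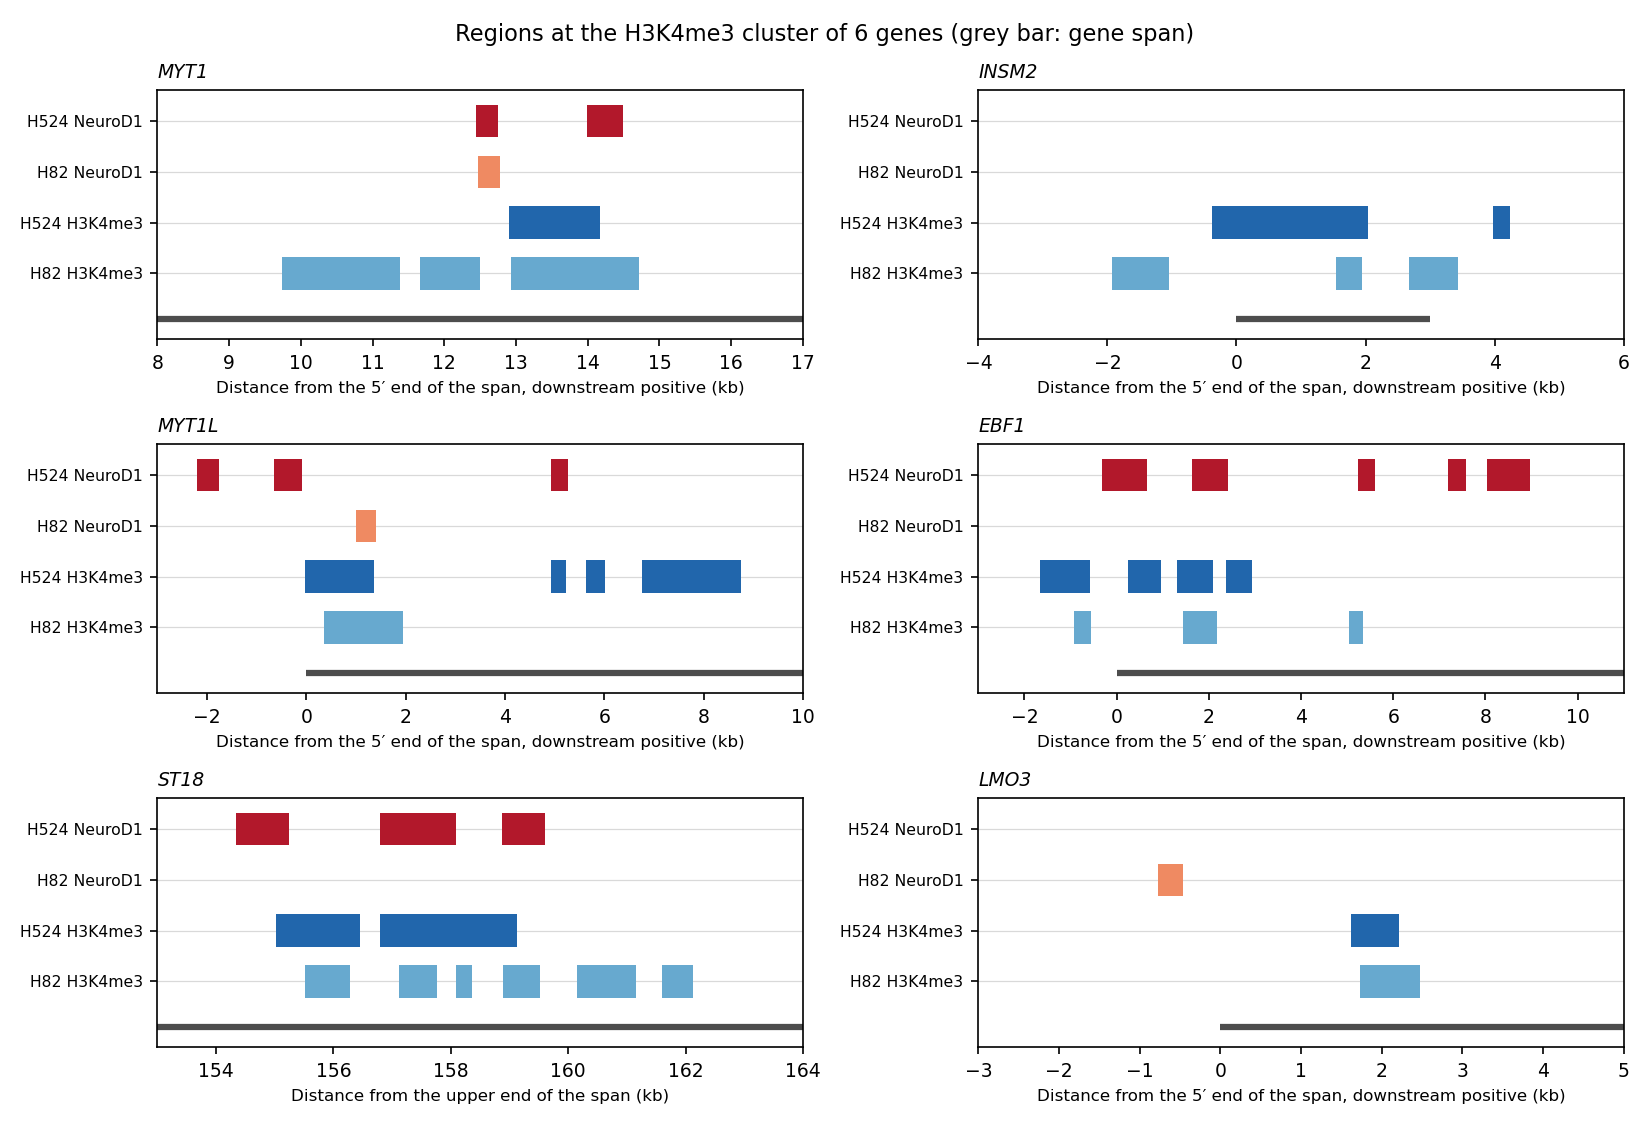
Regions at the marked stretch of 6 genes, drawn to scale as distance in kb from the 5′ end of the span (for ST18 from its upper end), with the 4 lists from top to bottom. NeuroD1 lies at the edge of the mark at MYT1 in both lines, on it at MYT1L in both lines and at ST18 and EBF1 in H524, and away from it at INSM2 and LMO3.

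Over all 8 genes, the intervals for NeuroD1 overlap between the lines and with the mark included the shares of the whole lists. Of the 54 NeuroD1 regions of H524, 3 overlapped one of H82 (5.56%, 1.16 to 15.4), against 9.98% of the whole H524 list. Of the 6 NeuroD1 regions of H82, 3 overlapped one of H524 (50%, 11.8 to 88.2), against 53.6% of the whole H82 list. The shared regions were those of MYT1, EBF1 and EBF3. On H3K4me3 of the same line lay 8 of 54 NeuroD1 regions in H524 (14.8%, 6.62 to 27.1) and 2 of 6 in H82 (33.3%, 4.33 to 77.7), against 16.0% and 29.4% of the whole lists. The 8 of H524 were spread over MYT1, MYT1L, ST18 and EBF1, and the 2 of H82 were at MYT1 and MYT1L. On the mark of the other line lay 6 of 54 NeuroD1 regions of H524 (11.1%), against 15.6% of the whole list, and 1 of 6 of H82 (16.7%), against 15.9%.

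Of the 21 H3K4me3 regions of H524, 8 overlapped NeuroD1 of H524 (38.1%, 18.1 to 61.6), against 18.0% of the whole list, a value at the edge of the interval. When at least 50% of the narrower region had to be shared, 5 of 21 did (23.8%, 8.22 to 47.2), against 12.9% of the whole list, which the interval includes. With NeuroD1 lists of equal length 0 of 21 did. The 8 are not independent, since 3 were neighbours at EBF1 and 2 at ST18. In H82, 2 of 20 overlapped NeuroD1 of H82 (10.0%, 1.23 to 31.7), against 6.34%. Across the lines, 1 of 21 H524 H3K4me3 regions overlapped NeuroD1 of H82 (4.76%), against 3.41%, and 6 of 20 H82 ones overlapped NeuroD1 of H524 (30%, 11.9 to 54.3), against 17.9%. Between the lines, 8 of 21 H524 regions overlapped one of H82 (38.1%), against 52.9% of the list, and 10 of 20 H82 regions overlapped one of H524 (50%, 27.2 to 72.8), against 52.4%. H3K4me3 regions were listed in all 8 windows in H524 and in 6 in H82, where 44.8% and 41.3% of tiles of 200 kb held one. At all 6 genes with the mark in both lines, at least 1 region overlapped between them.

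Of the 54 NeuroD1 regions of H524, 26 had another within 5 kb (48.1%), against 32.8% of the whole list. Having a neighbour is mutual, and the 26 regions form 9 groups, so the interval of 34.3 to 62.2, which takes regions as independent, is too narrow to tell the shares apart. The groups were the 5 regions at the 5′ end of EBF1, the 5 upstream of LMO1, the 3 on the mark of ST18, the 3 downstream of INSM2 and 5 pairs. In H82 0 of 6 had such a neighbour, which allows up to 45.9%, against 13.4% of the list. For H3K4me3, 14 of 21 regions of H524 had a neighbour within 5 kb (66.7%, 43.0 to 85.4), against 51.7% of the list, and 17 of 20 of H82 (85%, 62.1 to 96.8), against 63.6%. The distance of 5 kb was chosen after the positions had been seen.

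**Figure D5:**
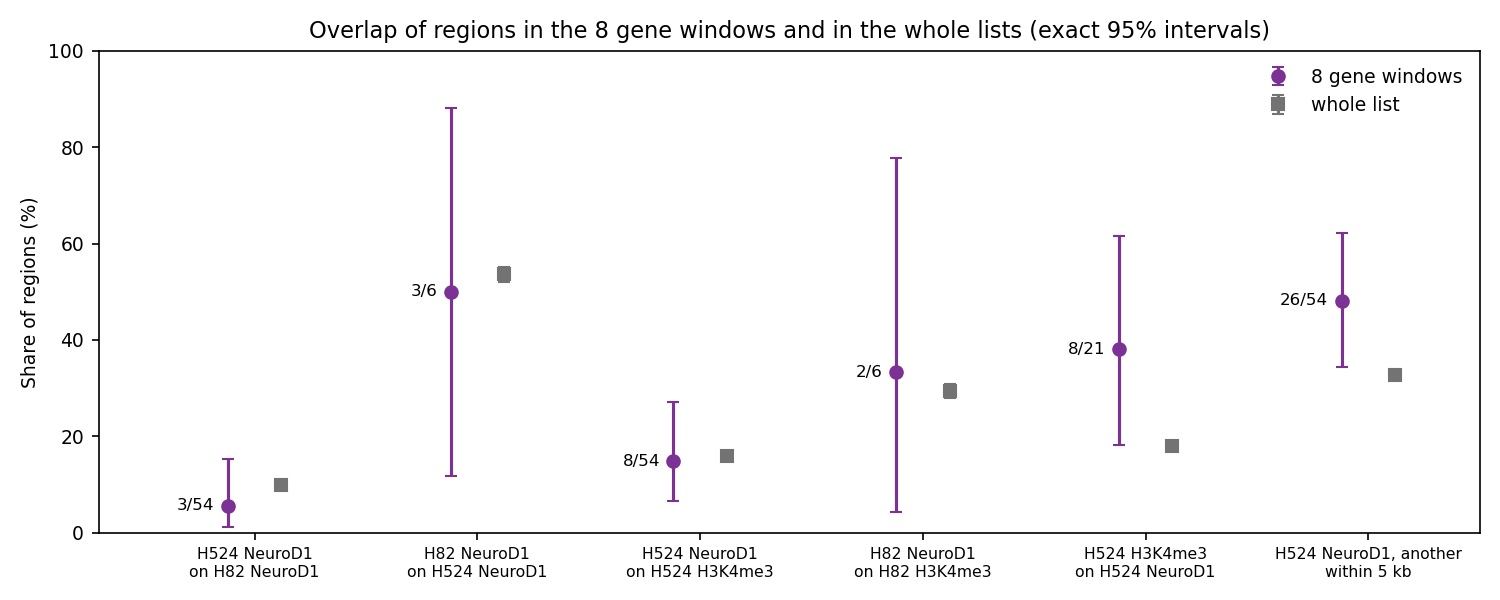
Share of regions that meet each overlap, in the 8 windows (circles, with counts) and beside it in the whole list (squares), with exact 95% intervals in %. Of the 6 overlaps drawn, the intervals of the windows include the whole-list share except for H524 H3K4me3 on NeuroD1 (8 of 21), where it is at the edge, and H524 NeuroD1 with another within 5 kb (26 of 54). The regions of both adjoin one another and are not independent, so these intervals are too narrow.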

How the data were processed

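Per the labels' protocols, sonicated nuclei were immunoprecipitated, and libraries were sequenced on an Illumina instrument. The submitters' processing notes name Bowtie 1.1.2, MACS2 2.1.1 and build hg19, without roles. How peaks were called, and whether with the inputs, is not given in the sources used here. Whether differences in depth or copy number between the lines were corrected for is therefore unknown. Each list comes from 1 library. The score deposited by the authors for each region was read as the −log10 of an adjusted p-value, from a lowest value of 1.30, and was used to rank regions within a list.

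Entries with the same interval were merged to 1 region with its highest score. Regions overlapped when they shared 1 bp. Starts are 1-based. Strands and start spacings came from RefSeq GRCh38.p14, without conversion of coordinates, and ST18 was oriented by coordinate. Neighbouring genes are by RefSeq order. Overlap counting and window assignment were tested on simulated data. Alternatives changed the flank, the overlap rule, the score, the merging, the list length and the scaling. Named regions were the 3 highest-scoring NeuroD1 regions of a window and line, those shared or marked, and the nearest and highest H3K4me3 regions, and every region where a list had at most 3. Some others were added for the description after their values were seen. The genes and choices were made with earlier results of these data known. Scripts ran in Python 3.11.15 (numpy 2.4.6, pandas 2.3.3 for tables; scipy 1.17.1 for intervals; matplotlib 3.10.9 for plots).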

Additional observations from a re-analysis of the deposited data

How the results depend on the processing

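Of 70 values recomputed under other settings, 60 stayed within 1.5 times the count or within the counting interval given above, and 10 did not. Many of these intervals are wide, so staying within one says little about stability. The share of H82 NeuroD1 regions on NeuroD1 of H524, for example, ran from 16.7% to 75% within its interval. Keeping regions that score at least 3 left 30 NeuroD1 regions in H524 and 2 in H82, and 12 H3K4me3 regions in H524 and 10 in H82. Under this limit 0% of the H82 NeuroD1 regions lay on the mark, because the remaining 2 were those of MYT1 and EBF3 and the touching H3K4me3 region of MYT1 scored below 3. Limiting the H524 NeuroD1 list to the length of the H82 list left 6 regions, of which 16.7% were shared with H82 and 0% lay on H3K4me3 of H524, and 0% of the H524 H3K4me3 regions lay on NeuroD1. H524 then had more NeuroD1 regions than H82 at 2 genes, against 6 by count and 4 as a share of each list. The settings for that share of H3K4me3 regions and for the number of genes were chosen after seeing the data, and the share was 23.8% to 57.1% under the others. The log2 ratio of the NeuroD1 shares then became 0.00, and it was 1.37 with scores of at least 3, 0.90 with a flank of 100 kb and 0.75 with none. That of H3K4me3 was -0.13 without a flank and -0.10 scaled by chromosome. The counts limit what can be read, since 6 H82 regions leave wide intervals and an unlisted region is not an unbound one. No paired analysis was possible because each line and antibody had 1 library.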
